A study of Rattus norvegicus with 12 samples.

Results

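The genes described here are the C-type lectin genes of the rat whose symbol begins with Clec and a digit. The count table listed 31 such protein-coding genes among 22250 protein-coding genes and 34599 loci. Of these, 23 had 10 or more counts in at least 4 of the 12 rats and were tested, together with all 15175 loci that passed the same minimum. Members were taken by symbol, so the list also holds the secreted proteins Clec3b, Clec11a, Clec18a and Clec3a and the intracellular protein Clec16a, which are not membrane receptors. Members were chosen by symbol and tested members by their counts over all 3 groups, and the family was picked out with its changes in these rats known. Of the tested members, 15 reached 10 counts in all rats, and 7 (Clec4d, Clec4e, Clec4b2, Clec4a2, Clec2d2, Clec2dl1 and Clec12b) did so in fewer than 4 Sham rats, so these 7 passed mainly through the injured hearts where they were high.

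RNA-seq was performed on tissue labelled as left ventricle from 12 male Sprague-Dawley rats, 4 in each of 3 groups, harvested 1 day after surgery. Sham rats had the chest opened without a coronary ligation, and MI rats had the left anterior descending artery ligated. The iCarP+/Light+ rats were ligated in the same way, received Chlorella, a green alga that releases oxygen under light, by injection into the infarct, and then had an illuminated optical fiber patch (iCarP) fixed to the epicardium with an adhesive. All 3 groups therefore shared the thoracotomy, while alga, patch, adhesive and light cannot be told apart in the comparison of iCarP+/Light+ with MI. RNA-seq of a group with the patch but no light was not analysed here. The tissue was taken from the MI region, of which Sham hearts have none, and the labels give neither an age nor a batch.

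C-type lectin receptors sit mostly on myeloid cells and bind sugars, lipids or material released by dead cells. Activating members recruit adaptors with a tyrosine-based activation motif, such as the Fc receptor gamma chain and DAP12, or carry a related motif themselves, and signal through the kinase Syk to the Card9 complex. Inhibitory members carry a motif that recruits phosphatases, and others are endocytic receptors, ligands of natural killer cell receptors or endothelial proteins.

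In the coordinates listed in the table (rn6), 22 of the 31 genes lay on chromosome 4. Of these, 8 formed an uninterrupted cluster of 484 kb in the order Clec4a2, Clec4a3, Clec4a1, Clec4a, Clec4b2, Clec4n, Clec4d and Clec4e, from 155792761 to 156276304, with no other listed gene between them. A second stretch of 946 kb, from Clec2dl1 at 162281574 to Clec7a ending at 163227334, held 11 members. The cluster is shown first because from MI to iCarP+/Light+ it held members that fell (Clec4a3 and Clec4a1) and members that rose (Clec4b2, Clec4d and Clec4e). The sequences that follow are the 250 bases before the start of the most changed activating pair and of the pair of DCIR genes that fell, taken from RefSeq on GRCr8, a different build from the count table. In the table Clec4a3 precedes Clec4a1 and both are on the minus strand, whereas on GRCr8 Clec4a1 comes first and both are on the plus strand. Capitals mark the motif matches of these windows.
Clec4e (chr4:158298468-158298717, minus strand): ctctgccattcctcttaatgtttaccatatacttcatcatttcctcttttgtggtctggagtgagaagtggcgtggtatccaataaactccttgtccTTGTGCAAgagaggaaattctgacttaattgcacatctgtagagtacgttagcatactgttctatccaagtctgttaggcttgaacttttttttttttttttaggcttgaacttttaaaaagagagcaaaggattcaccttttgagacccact
Clec4d (chr4:158275093-158275342, plus strand): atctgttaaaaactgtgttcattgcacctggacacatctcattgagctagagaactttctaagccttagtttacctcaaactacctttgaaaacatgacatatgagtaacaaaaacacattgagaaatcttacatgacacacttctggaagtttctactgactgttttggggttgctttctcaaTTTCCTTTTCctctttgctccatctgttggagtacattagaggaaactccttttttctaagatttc
Clec4a1 (chr4:157845561-157845810, plus strand): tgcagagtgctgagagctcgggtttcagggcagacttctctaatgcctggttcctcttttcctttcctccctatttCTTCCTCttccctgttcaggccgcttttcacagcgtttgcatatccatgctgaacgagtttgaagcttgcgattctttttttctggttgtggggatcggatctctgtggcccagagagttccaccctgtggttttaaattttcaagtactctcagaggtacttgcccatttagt
Clec4a3 (chr4:157886508-157886757, plus strand): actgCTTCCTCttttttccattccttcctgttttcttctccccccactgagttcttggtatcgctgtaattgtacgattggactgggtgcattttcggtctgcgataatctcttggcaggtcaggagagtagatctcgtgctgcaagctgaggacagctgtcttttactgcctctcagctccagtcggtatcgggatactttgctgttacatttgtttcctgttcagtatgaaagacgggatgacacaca

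The capitals in Clec4e are a match to the C/EBP letters TTGCNNAA, beginning 153 bases before the start, and those in Clec4d a match to the IRF letters, GAAA and GAAA set 2 bases apart, 66 bases before the start, both on the opposite strand. Clec4a1 and Clec4a3 each held the PU.1 letters GAGGAAG on the opposite strand, 174 and 246 bases before the start. Matches on either strand were found in 9.22% (C/EBP), 3.41% (IRF) and 10.2% (PU.1) of the 33469 rat promoters of the same length. The 19 tested members with a promoter entry held the C/EBP letters in 4 cases (Clec11a, Clec12a, Clec16a, Clec4e), the IRF letters in 2 (Clec2g, Clec4d) and the PU.1 letters in 3 (Clec12a, Clec4a1, Clec4a3). The letters ACGTG of the HIF motif were found in 4 (Clec14a, Clec1b, Clec4a2, Clec7a; 16.6% of all promoters), the NF-kappaB letters, GGG and TTCC set 3 bases apart, in 2 (Clec1b, Clec5a; 4.53%) and the AP-1 letters TGANTCA in 1 (Clec12a; 6.34%). These matches describe the letters of the windows and were not tested as binding sites.

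The total count per rat lay between 14064414 and 17136958. The mitochondrial share of counts was 22.8 to 28.9% in Sham rats, 8.52 to 11.5% in MI rats and 7.14 to 14.2% with iCarP+/Light+, and counts were scaled by TMM, a method that adjusts library sizes for such shifts in composition. Levels are given as counts scaled to a common library size (CPM). CPM per kb of gene length is used where Clec genes are ranked or summed by level. Ratios of counts within a rat and sums of marker genes were not corrected for gene length. Cardiomyocyte markers (11 of 12 listed, all tested) were present in every rat, with summed levels of 57175 to 61528 CPM in Sham rats, 3670 to 7277 CPM in MI rats and 3112 to 8427 CPM in the iCarP+/Light+ rats. The general leukocyte list (6 of 6, with Lcp1 giving the most counts) summed to 259 to 378, 2181 to 3013 and 3406 to 6832 CPM. In whole tissue, fewer cells of a type and less RNA per cell cannot be told apart.

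Compared to Sham, 13 of the 23 tested Clec genes were higher and 6 were lower in MI rats, in edgeR's quasi-likelihood test with Benjamini-Hochberg adjustment over all tested loci and a threshold of 0.05. Of all 15175 loci, 63.6% passed in either direction, 30.1% higher and 33.6% lower. Compared to MI, 7 Clec genes were higher and 4 were lower in iCarP+/Light+ rats, where 13.5% of all loci passed, 11.5% higher and 2.01% lower. The count of lower genes was 2 without MI rat 1 or 4 or iCarP+/Light+ rat 2 or 4. Compared to Sham, iCarP+/Light+ rats had 13 higher and 5 lower, beside 66.4% of all loci (33.4% higher and 33% lower). The same shares of all loci are the background of every count of called marker genes. Levels without overlap between groups were seen in 58.9% (MI against Sham), 16.4% (iCarP+/Light+ against MI) and 63.4% (iCarP+/Light+ against Sham) of all loci. Among the 23 tested Clec genes, 17, 10 and 19 had such levels, in the same order. These shares stand beside every statement on overlap of levels and do not cover ratios within rats. The 7 genes that passed the minimum mainly through the injured hearts were all among those higher than Sham in both ligated groups, as their selection favoured. The 16 others had 6 higher and 6 lower in MI and 6 higher and 5 lower in iCarP+/Light+ rats against Sham, and 4 higher and 3 lower from MI to iCarP+/Light+. Their median log2 fold changes were 0.13 (MI against Sham), 0.05 (iCarP+/Light+ against MI) and 0.24 (iCarP+/Light+ against Sham), where those of all tested loci were -0.06, 0.01 and 0.02. With libraries scaled by total counts alone, higher genes made up 73.4, 30.7 and 64.5% of all calls in these comparisons in place of 47.3, 85.1 and 50.3%, and in DESeq2 they made up 70.9% of the calls between iCarP+/Light+ and MI. The comparisons share their groups, and p-values measure the spread between these rats.

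**Figure D1:**
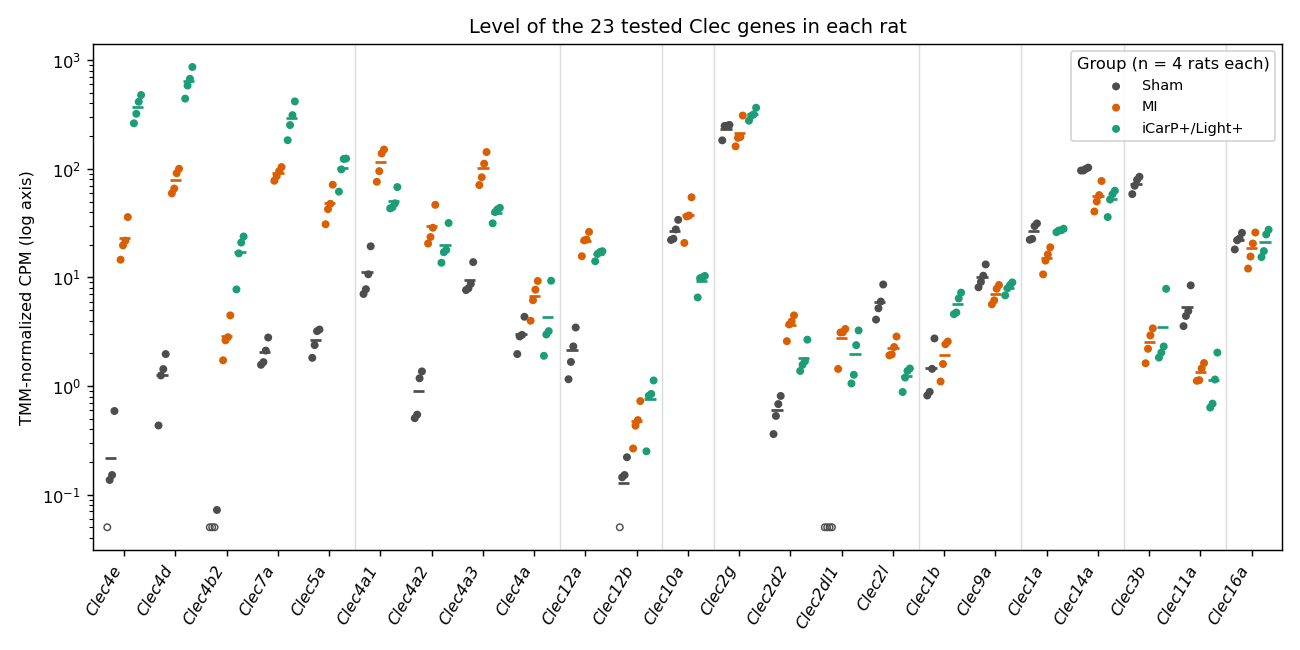
TMM-normalized CPM (log axis) of the 23 tested Clec genes, with 1 point per rat, short bars for group means and open circles at 0.05 CPM for rats with 0 counts. The means of Clec4e, Clec4d, Clec4b2, Clec7a and Clec5a at the left rise from Sham to MI to iCarP+/Light+. By contrast, Clec3b is below 8 CPM in every ligated rat and above 58 CPM in every Sham rat.

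Of the activating receptors, Clec4e, Clec4d, Clec4b2, Clec7a and Clec5a were higher in MI than in Sham, and a further rise was seen in iCarP+/Light+ rats. Of all loci, 30.1% (MI against Sham) and 11.5% (iCarP+/Light+ against MI) were higher. Clec4e, Clec4d and Clec4b2 passed the count minimum through the ligated groups, which favours a higher level than in Sham, and the activating member Clec4n stayed below it. Clec1b and Clec9a, which also carry a motif of their own, are taken up below by cell type and did not share both rises. With MI, Clec9a was lower (-0.53) and Clec1b did not pass (0.38, adjusted p = 0.418). From MI to iCarP+/Light+, Clec1b rose and Clec9a did not pass. Clec4e (Mincle) binds glycolipids and a nuclear protein released by dead cells, and signals through the Fc receptor gamma chain. Its levels in Sham rats were 0, 0.136, 0.151 and 0.589 CPM, in MI rats 21.8, 19.7, 36.0 and 14.6 CPM, and in iCarP+/Light+ rats 263, 322, 415 and 479 CPM. The 3 groups did not overlap. The rise was 6.68 on the log2 scale from Sham to MI (SE 0.51, adjusted p = 2.9e-07) and 4.00 from MI to iCarP+/Light+ (SE 0.34, adjusted p = 9.69e-06), or 16.04-fold.

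Clec4d (MCL), which pairs with Mincle and lies next to it in the cluster, was measured at 0.433, 1.43, 1.97 and 1.25 CPM in Sham rats. MI rats had 91.2, 65.9, 100.2 and 59.5 CPM, and iCarP+/Light+ rats 443, 585, 676 and 867 CPM. These groups did not overlap either. The log2 fold change was 5.96 with MI (SE 0.36, adjusted p = 7.29e-08) and 3.02 from MI to iCarP+/Light+ (SE 0.29, adjusted p = 2.16e-05), or 8.12-fold. Within each rat, the log2 ratio of Clec4e to Clec4d counts lay between -2.06 and -1.48 in MI and between -0.86 and -0.70 in iCarP+/Light+ rats, so Clec4e gained on its neighbour by 1.03 on average, without overlap.

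Clec7a (dectin-1), the receptor for beta-glucans, carries its own activation motif. Sham rats had 1.66, 1.57, 2.12 and 2.80 CPM, MI rats 85.9, 103.9, 95.2 and 77.7 CPM and iCarP+/Light+ rats 184, 253, 312 and 418 CPM, with no overlap. The log2 fold changes were 5.48 (SE 0.28, adjusted p = 3.92e-08) and 1.69 (SE 0.22, adjusted p = 2.35e-04). Clec5a, which signals through DAP12, had 1.82 to 3.31 CPM in Sham rats, 71.5, 42.5, 47.7 and 30.9 CPM in MI rats and 98.8, 61.7, 123 and 124 CPM in the iCarP+/Light+ rats. Its second rise, of 1.08 on the log2 scale (SE 0.27, adjusted p = 0.0148), came with overlapping groups, since iCarP+/Light+ rat 2 was below MI rat 1, and the adjusted p was 0.0677 without iCarP+/Light+ rat 5.

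Clec4b2, an activating receptor of the same chromosome 4 cluster, was almost absent from Sham hearts, with 1 count in rat 1 and 0 in the other 3. In MI rats it reached 2.63, 1.73, 4.47 and 2.82 CPM, and in iCarP+/Light+ rats 7.76, 21.0, 16.7 and 23.8 CPM. The pooled counts of MI rats (220) were 159.9 times those of Sham rats after scaling, with a 95% interval of 28.4 to 6342 that covers counting error only. Against MI, the log2 fold change of iCarP+/Light+ was 2.57 (SE 0.37, adjusted p = 4.72e-04), without overlap.

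**Figure D2:**
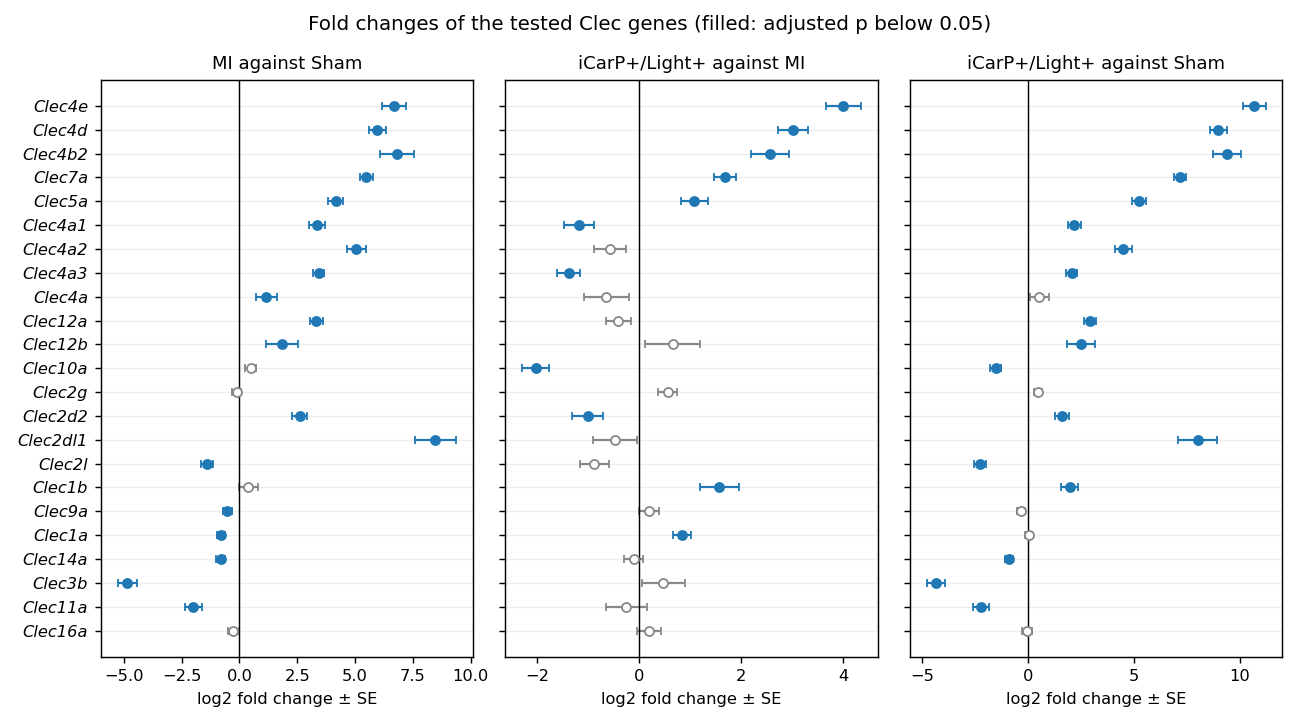
Log2 fold changes (points) and their standard errors (bars) of the tested Clec genes in the 3 comparisons, with n = 4 rats per group and filled points where the adjusted p was below 0.05. The fitted values of Clec2dl1 and Clec4b2 against Sham rest on 0 and 1 Sham counts and depend on how such counts are treated. In the middle panel Clec4e (4.00) and Clec10a (-2.02) lie at the ends.

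Markers of neutrophils were read beside these 5 genes. Of 19 listed, 18 were in the table and 13 were tested. The summed level of the 18 was 22.2 to 36.4 CPM in Sham rats, 475 to 794 CPM in MI rats and 3736 to 10420 CPM in the iCarP+/Light+ rats. From Sham to MI 11 of the 13 rose, and Lcn2 (log2 fold change 0.32, adjusted p = 0.408) and Hdc (0.77, adjusted p = 0.279) did not pass. All 13 rose from MI to iCarP+/Light+, with fold changes up to that of Lcn2 (log2 5.13), and S100a9 (3.53) gave the most counts to the sum over all rats, while Mpo, Ltf, Ngp, Cxcr1 and Fpr2 stayed below the count minimum. The share of neutrophils in the changes of the Clec genes was not tested. To set the members beside a cell marker, counts were divided within each rat by those of Csf3r, the receptor for the neutrophil growth factor G-CSF, Csf1r, the receptor for the macrophage growth factor, and Ptprc, the leukocyte antigen CD45. Csf3r and Csf1r were chosen outside the rule for named genes. Csf3r itself rose from 116 to 154 CPM in MI to 373 to 1193 CPM in iCarP+/Light+ rats.

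Relative to Csf3r, Clec4e had a log2 ratio of -3.40 to -2.01 in MI and of -1.39 to -0.50 in iCarP+/Light+ rats, a mean difference of 1.49 without overlap. Clec4d gained 0.46 and Clec4b2 changed by -0.02, both with overlapping groups. Clec7a lost 0.92 relative to Csf3r without overlap, and Clec5a lost 1.46 with overlap. Relative to Ptprc, by contrast, Clec4e gained 3.23, Clec4d 2.20, Clec4b2 1.72 and Clec7a 0.82, each without overlap, and Clec5a gained 0.28 with overlap. Relative to Csf1r, Clec4e gained 4.62, Clec4d 3.59, Clec4b2 3.11, Clec7a 2.21 and Clec5a 1.68, each without overlap. These ratios were described without a test.

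**Figure D3:**
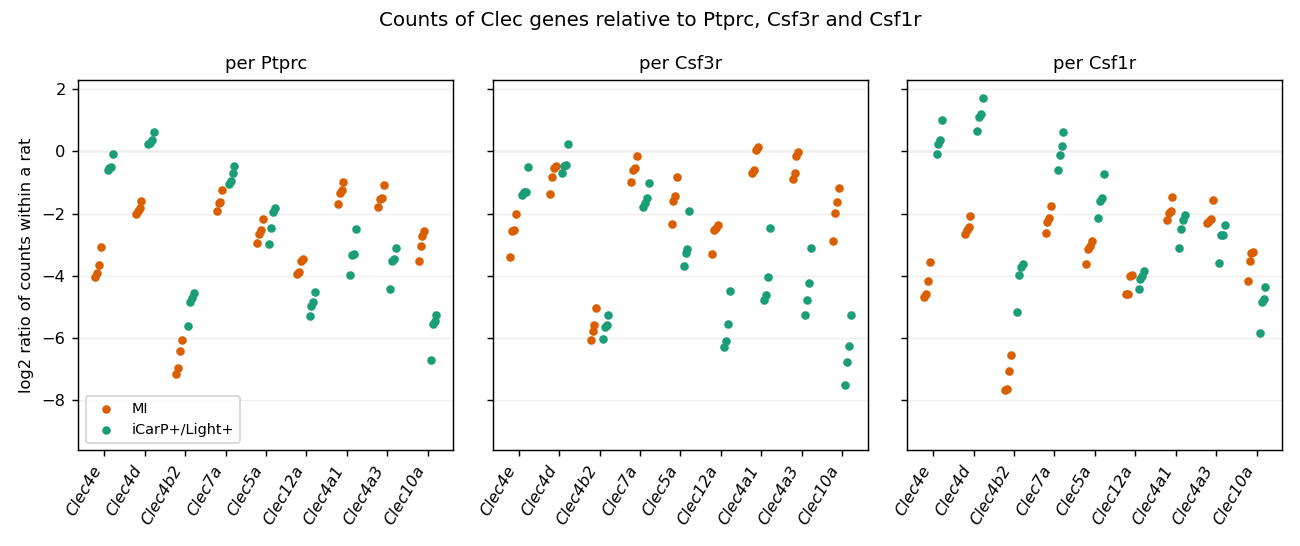
Log2 ratios of the counts of 9 Clec genes to Ptprc, Csf3r and Csf1r within each rat, for 4 MI and 4 iCarP+/Light+ rats. Per Csf3r, Clec4e is higher in every iCarP+/Light+ rat than in every MI rat, and Clec4d, Clec4b2 and Clec5a overlap. Clec7a, Clec12a, Clec4a1, Clec4a3 and Clec10a are lower in every iCarP+/Light+ rat. Csf3r itself rose from MI to iCarP+/Light+.

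The DCIR genes Clec4a, Clec4a1, Clec4a2 and Clec4a3 are relatives of an inhibitory receptor of dendritic cells and macrophages, and occupy the other side of the cluster. All 4 were higher in MI than in Sham, beside 30.1% of all loci, although Clec4a2 passed the count minimum through the ligated groups. From MI to iCarP+/Light+ none was higher and 2, Clec4a3 and Clec4a1, were lower, beside 11.5% and 2.01% of all loci. Clec4a3 was at 7.94, 8.72, 7.65 and 13.8 CPM in Sham rats, at 111.6, 70.9, 143 and 83.7 CPM in MI rats and at 43.7, 42.3, 40.0 and 31.5 CPM in iCarP+/Light+ rats. Every iCarP+/Light+ rat lay between the Sham and the MI rats. The log2 fold change was 3.42 with MI (SE 0.25, adjusted p = 2.29e-07) and -1.38 from MI to iCarP+/Light+ (SE 0.23, adjusted p = 0.00123).

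Clec4a1 had 7.79, 10.7, 7.04 and 19.4 CPM in Sham rats, 139, 76.1, 151 and 95.3 CPM in MI rats and 68.0, 48.2, 44.4 and 43.2 CPM in the iCarP+/Light+ rats, again in 3 separate ranges. It rose by 3.36 on the log2 scale with MI (SE 0.33, adjusted p = 1.86e-06) and fell by 1.18 from MI to iCarP+/Light+ (SE 0.30, adjusted p = 0.0183). The fall did not hold the threshold without MI rat 1, MI rat 4, iCarP+/Light+ rat 2 or iCarP+/Light+ rat 4, with adjusted p of 0.0526, 0.0503, 0.0533 and 0.0545 in that order and log2 fold changes of -1.07, -1.02, -1.15 and -1.12.

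Clec4a2 rose from 0.505 to 1.36 CPM in Sham to 20.5 to 46.6 CPM in MI (log2 fold change 5.05, SE 0.41, adjusted p = 4.57e-07), and its level of 13.7 to 31.7 CPM in iCarP+/Light+ rats overlapped with MI (-0.57, SE 0.32, adjusted p = 0.29). Clec4a, the lowest of the 4 in MI per length at 5.86 CPM per kb, had 1.97 to 4.34 CPM in Sham and 3.99 to 9.28 CPM in MI. Its rise of 1.16 (SE 0.45, adjusted p = 0.0368) came with overlapping groups and missed the threshold without MI rat 1, 4 or 5 or Sham rat 1, 2 or 3 (adjusted p 0.0507 to 0.0970). In iCarP+/Light+, rat 1 had 9.32 CPM of Clec4a and the other 3 rats 1.90 to 3.20 CPM, and without rat 1 the log2 fold change against MI moved from -0.64 (adjusted p = 0.412) to -1.33 (adjusted p = 0.0198). Counting of reads shared between these similar genes is not described, so their individual values are uncertain to that extent.

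**Figure D4:**
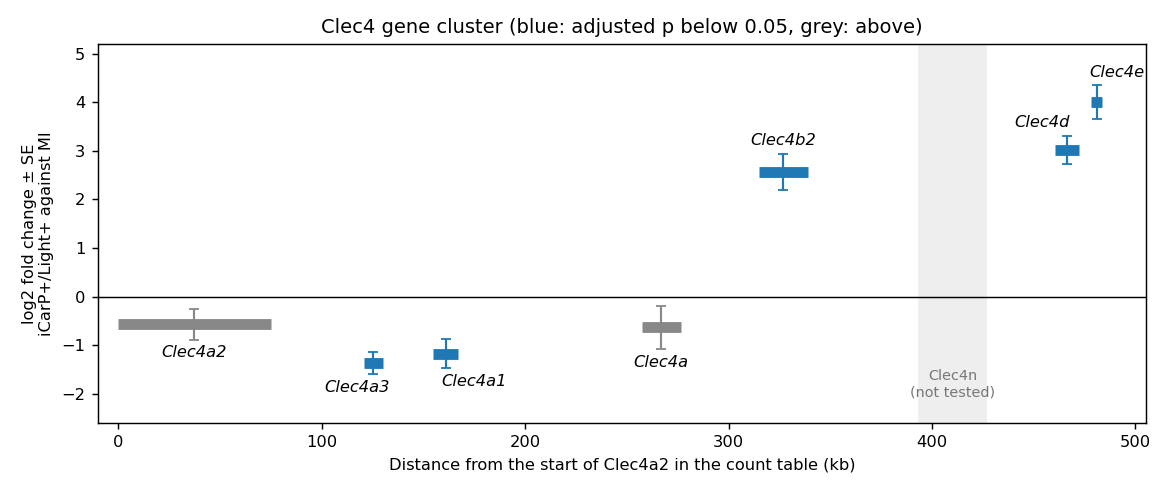
Log2 fold change from MI to iCarP+/Light+ (n = 4 rats each) of the genes of the Clec4 cluster against distance along chromosome 4 in kb, with bar length showing the extent of each gene and vertical lines the standard error. From Clec4a2 to Clec4a the values run from -1.38 to -0.57, and for Clec4b2, Clec4d and Clec4e from 2.57 to 4.00, while Clec4n was below the count minimum.

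Set against each other within a rat, the counts of Clec4d plus Clec4e per Clec4a1 plus Clec4a3 had log2 ratios of -5.18 to -2.79 in Sham rats, -1.27 to -0.78 in MI rats and 2.66 to 4.17 in the iCarP+/Light+ rats. The mean shift from MI to iCarP+/Light+ was 4.54, with no overlap. This pair of pairs was formed after the values were seen, so the shift is a description. Their neighbour Clec4n, listed under the mouse symbol of dectin-2, gave 28 counts over the 12 rats and was not tested.

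Clec10a, an endocytic receptor for galactose-type sugars on macrophages and dendritic cells, had the lowest fold change of the family between iCarP+/Light+ and MI. It was measured at 22.2, 27.7, 22.7 and 33.9 CPM in Sham rats, at 54.7, 37.2, 36.5 and 20.8 CPM in MI rats and at 9.82, 10.3, 10.02 and 6.54 CPM in the iCarP+/Light+ rats. The iCarP+/Light+ rats were below all other rats, while Sham and MI overlapped (log2 fold change 0.49, SE 0.25, adjusted p = 0.105). That difference from Sham passed the threshold without MI rat 5 (0.69, adjusted p = 0.0116) or iCarP+/Light+ rat 5 (0.59, adjusted p = 0.0450), and with total counts alone (1.06, adjusted p = 0.00235, or 0.54 relative to the median of all loci). The fall from MI was -2.02 on the log2 scale (SE 0.26, adjusted p = 2.03e-04) and that from Sham -1.53 (SE 0.26, adjusted p = 1.80e-04).

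Monocyte and macrophage markers were read beside the DCIR genes and Clec10a. Of 20 listed, 17 were in the table and tested, with summed levels of 1312 to 2011 CPM in Sham rats, 4320 to 7484 CPM in MI rats and 3409 to 5205 CPM in the iCarP+/Light+ rats. Most of the sum in the ligated rats came from Lyz2, with means of 4060 CPM in MI and 2963 CPM in iCarP+/Light+ rats, whereas in Sham rats Lyz2 gave 211 CPM and Cd74 752 CPM. From MI to iCarP+/Light+, 6 of the 17 were lower and 1, Adgre1, was higher (log2 fold change 1.19, adjusted p = 0.00756). Csf1r was at 352 to 525 CPM in MI and 204 to 375 CPM in iCarP+/Light+ rats (-0.56, adjusted p = 0.0792). Relative to Csf1r, Clec10a was lower by 1.38 and Clec4a3 by 0.76 in iCarP+/Light+ rats, both without overlap, and Clec4a1 by 0.57 with overlap. Clec4a was lower by 0.27 and Clec4a2 changed by 0.01 relative to Csf1r, both with overlap. What part the macrophage content had in the falls of Clec10a, Clec4a3 and Clec4a1 was not tested.

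Clec12a and Clec12b are inhibitory receptors of myeloid cells, the former for uric acid crystals. Clec12a rose from 1.15, 2.32, 1.67 and 3.46 CPM in Sham to 21.9, 22.3, 26.3 and 15.7 CPM in MI (log2 fold change 3.32, SE 0.28, adjusted p = 5.26e-07). It was at 16.5, 17.2, 14.1 and 17.4 CPM in iCarP+/Light+ rats, which overlapped with MI (-0.40, SE 0.24, adjusted p = 0.329). Its counts overlap those of Chtopl1, on the opposite strand over 940 bases, and whether strand was used in counting is not given. Clec12b had 89 counts in all 12 rats, the fewest of any tested member, with 0 to 0.221 CPM in Sham rats, 0.266 to 0.727 CPM in MI rats and 0.250 to 1.13 CPM in the iCarP+/Light+ rats. It passed against Sham in MI (1.84, SE 0.68, adjusted p = 0.0303) and in iCarP+/Light+ (2.50, SE 0.66, adjusted p = 0.00483), the first of these not without MI rat 3 or 4 or Sham rat 1, 2 or 3 (adjusted p 0.0505 to 0.0767).

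Several Clec2 genes encode ligands of NKR-P1 receptors on natural killer cells. Clec2g had the highest level per length of the family in Sham, with 254, 183, 249 and 250 CPM. Its level was 196.6, 193, 309.8 and 161 CPM in MI and 278, 308, 318 and 366 CPM in iCarP+/Light+ rats, and the MI rats overlapped with both other groups. No difference passed the threshold, with adjusted p of 0.595 against Sham in MI, 0.0695 from MI to iCarP+/Light+ (log2 fold change 0.56, SE 0.19) and 0.0534 from Sham to iCarP+/Light+ (0.44, SE 0.19), where all 4 iCarP+/Light+ rats were above all Sham rats. Without MI rat 4 these last values became 0.79 (adjusted p = 0.00367) and 0.44 (adjusted p = 0.0109), and the second also passed without MI rat 5 (adjusted p = 0.0394) or iCarP+/Light+ rat 1 (adjusted p = 0.0460), with DESeq2 size factors (adjusted p = 0.0459), in DESeq2 (adjusted p = 0.0323), in limma-voom (adjusted p = 0.0450), with only these groups in the fit (adjusted p = 0.0162) and with total counts alone (adjusted p = 0.00109). In limma-voom the first passed as well (adjusted p = 0.0452). With total counts alone, the log2 fold change of Clec2g from Sham to MI turned from -0.12 to 0.45 (adjusted p = 0.0246), which was -0.07 relative to the median of all loci.

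Clec2dl1 had no count in any Sham rat, 1.44 to 3.35 CPM in MI and 1.05 to 3.25 CPM in iCarP+/Light+ rats. Taking 3 counts over the Sham group as the limit that 0 allows, its level was at least 50.9-fold higher in MI and at least 36.6-fold higher in iCarP+/Light+ rats, and the ligated groups overlapped. The listed gene spans Clec2d on the same strand, so reads of these cannot be fully separated. Clec2d2 went from 0.361 to 0.810 CPM in Sham to 3.69, 2.59, 4.47 and 3.93 CPM in MI and 1.38, 1.57, 1.69 and 2.67 CPM in iCarP+/Light+ rats. It rose by 2.61 with MI (SE 0.33, adjusted p = 1.62e-05), and its lower level in iCarP+/Light+ than in MI (-1.01, SE 0.30, adjusted p = 0.0398) came with overlapping groups and missed the threshold without any of MI rats 1, 4 and 5, iCarP+/Light+ rats 1, 2 and 4 or Sham rat 3 (adjusted p 0.0507 to 0.109). Clec2l, known from nervous tissue, moved the other way, with 4.09 to 8.61 CPM in Sham rats, 1.92 to 2.86 CPM in MI rats and 0.880 to 1.45 CPM in the iCarP+/Light+ rats. It fell by 1.40 on the log2 scale with MI (SE 0.27, adjusted p = 4.85e-04). The 4 iCarP+/Light+ rats were also below the 4 MI rats, at -0.87 (SE 0.28, adjusted p = 0.0594). This passed without Sham rat 5 (adjusted p = 0.0446), with DESeq2 size factors (0.0482), in DESeq2 (0.0304), without mitochondrial genes (0.0489) and with total counts alone (-1.14, adjusted p = 0.0151).

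Clec1b (CLEC-2) is the podoplanin receptor of platelets. It was at 2.74, 0.818, 1.44 and 0.883 CPM in Sham rats, 1.10, 2.43, 2.57 and 1.59 CPM in MI rats and 4.76, 4.59, 7.25 and 6.40 CPM in the iCarP+/Light+ rats. Sham and MI overlapped (log2 fold change 0.38, SE 0.40, adjusted p = 0.418), and all iCarP+/Light+ rats were higher than the rest. With total counts alone, the difference between MI and Sham passed (0.95, adjusted p = 0.0440, or 0.44 relative to the median of all loci). The rise from MI was 1.58 on the log2 scale (SE 0.38, adjusted p = 0.0139, and 0.0526 without iCarP+/Light+ rat 5), and that from Sham 1.96 (SE 0.40, adjusted p = 6.90e-04). All 10 platelet markers together summed to 21.5 to 37.0 CPM in Sham rats, 75.6 to 238 CPM in MI rats and 97.9 to 239.7 CPM in the iCarP+/Light+ rats, made up mostly of Pf4. Of the 10, 4 were tested, and those below the minimum included Ppbp, Gp1ba, Gp1bb, Gp5 and Gp9. From MI to iCarP+/Light+ Gp6 was higher (1.86, adjusted p = 0.0394), and Treml1 (1.40, adjusted p = 0.189), Itga2b (0.88, adjusted p = 0.0753) and Pf4 (0.08, adjusted p = 0.923) did not pass, with a median of 1.14. The part of platelets in the rise of Clec1b was not tested. Clec9a, a receptor of dendritic cells for the actin of dead cells, had 8.11 to 13.2 CPM in Sham rats, 5.65 to 8.52 CPM in MI rats and 6.84 to 9.001 CPM in the iCarP+/Light+ rats. Its log2 fold change with MI was -0.53 (SE 0.19, adjusted p = 0.0273) with overlapping groups, it was 0.05 with total counts alone, or -0.46 relative to the median of all loci, and the adjusted p was 0.0525 to 0.103 without MI rat 1 or 4, Sham rat 3 or 5 or iCarP+/Light+ rat 5. Dendritic cell markers (13 of 13 tested) summed to 118 to 172 CPM in Sham rats, 324 to 415 CPM in MI rats and 359 to 502 CPM in the iCarP+/Light+ rats. With MI 8 were higher and 4, Zbtb46 (-1.06), Xcr1 (-1.21), Itgae (-0.81) and Cd1d1 (-0.83), were lower, and from MI to iCarP+/Light+ 1, Itgax (1.32), was higher and 3 were lower, with a median log2 fold change of -0.31. The part of dendritic cell content in the values of Clec9a was not tested.

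Of the endothelial members, Clec1a, an endothelial and myeloid receptor, had 22.7, 22.2, 31.4 and 29.7 CPM in Sham rats, 19.0, 14.3, 10.7 and 16.3 CPM in MI rats and 26.1, 27.2, 27.0 and 28.1 CPM in the iCarP+/Light+ rats. MI rats were below all rats of both other groups, which overlapped. The log2 fold change was -0.81 with MI (SE 0.17, adjusted p = 9.69e-04), 0.85 from MI to iCarP+/Light+ (SE 0.17, adjusted p = 0.00447) and 0.03 from Sham to iCarP+/Light+ (SE 0.17, adjusted p = 0.878). Clec14a, which takes part in vessel growth, was at 96.7, 102.7, 100.04 and 96.5 CPM in Sham rats, 57.3, 50.1, 40.5 and 77.3 CPM in MI rats and 62.9, 58.4, 52.1 and 36.0 CPM in the iCarP+/Light+ rats. It fell by 0.81 with MI (SE 0.19, adjusted p = 0.00247), and MI and iCarP+/Light+ rats overlapped (-0.10, SE 0.19, adjusted p = 0.791). With total counts alone, the falls of Clec1a and Clec14a with MI were -0.22 (adjusted p = 0.272) and -0.23 (adjusted p = 0.363), or -0.74 for each relative to the median of all loci. Endothelial markers (12 of 14 tested) summed to 2563 to 2897 CPM in Sham rats, 1384 to 1990 CPM in MI rats and 1785 to 2101 CPM in the iCarP+/Light+ rats. Cldn5 was at 0, and Cdh5 gave the most counts in Sham and Eng in the ligated groups. With MI, 9 of the 12 were lower and 0 were higher, beside 33.6% and 30.1% of all loci. Their median log2 fold change was -0.68. None of the 12 passed from MI to iCarP+/Light+, where 13.5% of all loci did. The part of endothelial content in the falls of Clec1a and Clec14a was not tested. Per count of Clec14a, Clec1a gained 0.97 on the log2 scale from MI to iCarP+/Light+, without overlap. Per count of Cdh5, Clec1a gained 0.51 and Clec14a lost 0.46 in that step, both without overlap. From Sham to MI, Clec1a gained 0.47 per Cdh5 with overlap and Clec14a 0.44 without overlap. None of these ratios was tested.

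Both tested secreted members fell with MI. Clec3b (tetranectin), which binds plasminogen, had 79.2, 69.9, 58.5 and 84.6 CPM in Sham rats, 2.20, 3.40, 1.62 and 2.92 CPM in MI rats and 2.32, 7.85, 2.03 and 1.83 CPM in the iCarP+/Light+ rats. Its log2 fold change of -4.84 with MI (SE 0.42, adjusted p = 7.83e-07), a 28.7-fold lower level, was the lowest of the family, and MI and iCarP+/Light+ overlapped (0.48, SE 0.42, adjusted p = 0.53, and -0.30 without iCarP+/Light+ rat 2). Clec11a, a secreted growth factor for bone and blood progenitors, fell from 3.56 to 8.45 CPM in Sham to 1.12 to 1.63 CPM in MI (-1.99, SE 0.38, adjusted p = 4.90e-04) and was at 0.633 to 2.03 CPM in iCarP+/Light+ rats. Fibroblast markers (10 of 10, with Col3a1 giving the most counts) summed to 8774 to 10839 CPM in Sham rats, 2817 to 3239 CPM in MI rats and 1533 to 3153 CPM in the iCarP+/Light+ rats, and 8 of 10 fell with MI while Postn rose (1.36, adjusted p = 8.10e-05). The part of fibroblast content in the fall of Clec3b was not tested. The mean log2 ratio of Clec3b to the collagen gene Col1a1, which fell itself (-1.55, adjusted p = 1.90e-04), differed by -3.33 between MI and Sham, and its ratio to the surface receptor gene Pdgfra, which did not pass (-0.24, adjusted p = 0.202), differed by -4.64. Both were chosen outside the rule. The intracellular Clec16a, which acts in the removal of mitochondria, passed in no comparison, with 18.1 to 25.7, 12.1 to 25.9 and 15.4 to 27.5 CPM.

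Per gene length, the 23 genes summed to 277 to 350 CPM per kb in Sham rats, 428 to 691 CPM per kb in MI rats and 859 to 1318 CPM per kb in the iCarP+/Light+ rats. Clec2g (32.8 to 42.7%) and Clec3b (24.6 to 30.7%) took the highest shares of this sum in Sham. In MI they were Clec4a3 (20.4 to 26.5%), Clec2g (17.2 to 22.3%) and Clec4a1 (10.5 to 15.0%), where Clec4a3 and Clec2g overlapped. In iCarP+/Light+ rats Clec4e took 32.1 to 38.4% and Clec4d 15.4 to 19.6%, followed by Clec2g (13.8 to 16.1%), with Clec4d and Clec2g overlapping, and Clec7a (8.49 to 12.6%). By mean CPM per kb, Clec4e thus ranked 19 of 23 among Sham rats, 6 among MI rats and 1 among iCarP+/Light+ rats.

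**Figure D5:**
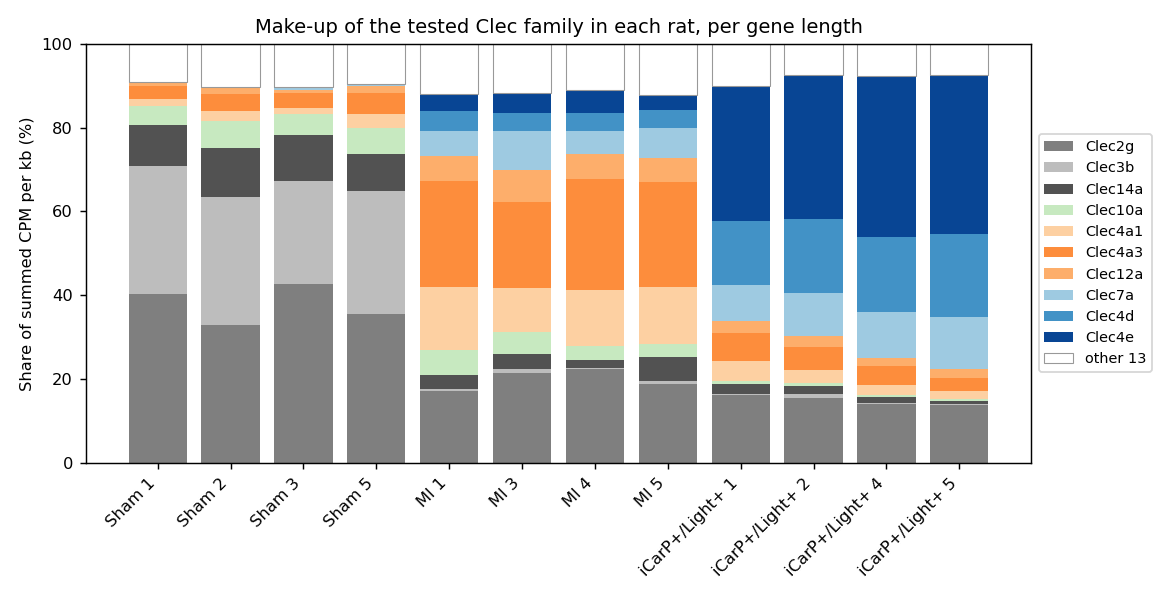
Percent of the summed CPM per kb of the 23 tested Clec genes in each rat, for the 10 genes named in the legend and the other 13 together. Grey genes (Clec2g, Clec3b, Clec14a) fill most of the Sham bars, orange genes (Clec4a1, Clec4a3, Clec12a) widen in MI, and blue genes (Clec7a, Clec4d, Clec4e) widen in iCarP+/Light+ rats.

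Of the signalling genes downstream of these receptors, 24 of 24 listed were tested. From Sham to MI 17 were higher and 2, Ptpn11 (-0.70, adjusted p = 4.22e-04) and Nfatc2 (-2.10, adjusted p = 5.45e-05), were lower, beside 30.1% and 33.6% of all loci. From MI to iCarP+/Light+ 9 were higher and 1, the adaptor Blnk (-0.81, adjusted p = 0.022), was lower, beside 11.5% and 2.01% of all loci. From Sham to iCarP+/Light+ 19 were higher and 3 lower, beside 33.4% and 33% of all loci. Fcer1g, the Fc receptor gamma chain, was at 30.5 ± 7.65 (SD, n = 4) CPM in Sham rats, 284 ± 98.1 in MI rats and 636 ± 172 in the iCarP+/Light+ rats, and its second rise was 1.17 on the log2 scale (SE 0.26, adjusted p = 0.00916). Tyrobp, which encodes DAP12, rose by 3.91 (adjusted p = 7.29e-08) and then by 1.00 (adjusted p = 0.00577), and the kinase Syk by 2.80 (adjusted p = 1.80e-07) and 0.69 (adjusted p = 0.0225). Card9 rose with MI (1.43, adjusted p = 4.94e-04) and was at 10.5 ± 2.83 CPM in iCarP+/Light+ against 17.4 ± 3.07 CPM in MI rats (-0.73, adjusted p = 0.0961). Ptprc was at 238 to 324 CPM in MI and 379 to 681 CPM in iCarP+/Light+ rats (0.84, adjusted p = 0.0153). Fcer1g, Tyrobp and Syk thus passed in both steps, and Card9 in the first.

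The other 8 members stayed below the minimum. Clec2d, the nearest to it, had 60 counts in all and reached 10 in 2 rats, whereas Clec12b, just inside, reached 10 in 4 rats with 89 counts in all. Clec4n had 28 counts, the liver endothelial receptor Clec4g 24, Clec2e 17, Clec4m 7, the Kupffer cell receptor Clec4f 5, Clec18a 2 and Clec3a 1. Clec2d had 0 counts over the Sham rats, 33 over the MI rats and 27 over the iCarP+/Light+ rats, and none of the 8 was tested under this minimum.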

How the data were processed

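The authors deposited a table of raw counts, whole numbers of reads on each gene, that had not been normalized. The submitters' processing notes name HISAT2, featureCounts and the build rn6, in which coordinates are given. Versions, annotation release, strand setting and handling of multi-mapping reads are not given in the sources used here. Libraries were made with an NEBNext Ultra kit. Reads carry no molecular identifiers, so intervals and floors (3 counts) cover counting error only.

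Analysis was done with edgeR 4.0.16 in R 4.3.3. Loci with 10 or more counts in at least 4 samples (15175) were scaled by TMM and fitted over all 12 rats by edgeR's quasi-likelihood test, each group having 1 mean. The 3 comparisons used Benjamini-Hochberg adjustment over all tested loci and a threshold of 0.05. Standard errors are the log2 fold change divided by the square root of its F statistic. The fit was also run on simulated counts, with an outcome that is not reported here. Alternatives used DESeq2 1.42.0, limma-voom (limma 3.58.1), other scalings, filters and samples, and a block on replicate number. Same-numbered rats are different animals, with correlations of their deviations between -0.15 and 0.062 over 9 pairs. Within groups, chi-square per gene was 14.8 to 119, so no pair of rats was a copy. Promoters came from RefSeq. Plots were drawn with matplotlib 3.10.9. All tested Clec genes were named, the rest by counts, and list genes only where a result turned on them (adaptors, Syk, Card9, Ptprc, the highest marker of a list, exceptions to its direction). Members, marker lists and tests were chosen with earlier results of these data known. Marker lists covered neutrophils, macrophages, dendritic cells, lymphocytes, platelets, endothelial cells, fibroblasts, cardiomyocytes and leukocytes. Some genes of these lists are not reported here.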

Additional observations from a re-analysis of the deposited data

Results flagged for a closer look

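Within groups of 4 rats, a rat was picked out where its gap to the nearest other rat on the log2 scale, divided by the range of the group, exceeded Dixon's 95% critical value. This was so in 4 of the 65 groups examined, and chance gives about 1 in 20. Clec2g in Sham rat 2 had a quotient of 0.936, at 183 CPM against 248.6 to 253.9 CPM in the other 3. Clec2dl1 in MI rat 5 had a quotient of 0.911, at 1.44 CPM against 3.11 to 3.35 CPM. Clec10a in iCarP+/Light+ rat 5 had a quotient of 0.890, at 6.54 CPM against 9.82 to 10.3 CPM, which was further from MI than the rest of its group. Clec3b in iCarP+/Light+ rat 2 had a quotient of 0.840, at 7.85 CPM against 1.83 to 2.32 CPM.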

How the results depend on the processing

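The counts of called Clec genes stayed within 1.5 times of those reported in 59 of 60 values under other settings and in 68 of 72 values without 1 rat. With total counts alone as scaling, 3 rather than 6 genes were lower in MI than in Sham. That scaling moved the median log2 fold change of all loci to 0.52, -0.25 and 0.33 in the 3 comparisons. From MI to iCarP+/Light+, 77.4% of all calls were higher with DESeq2's size factors and 79.7% without mitochondrial genes, against 85.1% as reported. Without 1 rat, the counts ranged from 11 to 14 higher and 5 to 6 lower in MI against Sham, and from 5 to 8 higher and 2 to 5 lower in iCarP+/Light+ against MI. The lower count was 2 without MI rat 1 or 4 or iCarP+/Light+ rat 2 or 4. With the replicate block, 11 and 5 (MI against Sham), 6 and 3 (iCarP+/Light+ against MI) and 13 and 5 (iCarP+/Light+ against Sham) were higher and lower. The block lost the calls of Clec12b, Clec4a and Clec9a with MI and of Clec2d2 and Clec5a from MI to iCarP+/Light+. The rats share only a number, since no same-numbered pair correlated above 0.1 and no rat was closest to its own number. Over 10 other settings, the block among them, the call of Clec9a with MI held in 5. That of Clec2d2 from MI to iCarP+/Light+ held in 8. Log2 fold changes changed sign in 8 of 690 values under other settings and in 9 of 828 values without 1 rat, each of a gene without a call in the reported comparison but for Clec9a with MI. With total counts these were Clec16a (0.33), Clec2g (0.45) and Clec9a (0.054) in MI against Sham, Clec16a (-0.091) and Clec9a (-0.077) in iCarP+/Light+ against MI and Clec16a (0.24) in iCarP+/Light+ against Sham. In the fit of only the compared groups it was Clec2g (0.0051), and with the block Clec16a (0.031) against Sham. Without 1 rat, iCarP+/Light+ against MI ranged from -0.23 to 0.087 for Clec14a, -0.026 to 0.41 for Clec16a and -0.30 to 0.67 for Clec3b, and iCarP+/Light+ against Sham from -0.18 to 0.071 for Clec16a, -0.044 to 0.12 for Clec1a and -0.17 to 0.80 for Clec4a. The cause of these moves was not tested. At this depth Clec12b rested on few counts and the 8 untested genes stayed below the minimum.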

Other observations

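C-type lectin genes with other symbols were read from a list of 47, of which 42 were in the table and 25 were tested. From Sham to MI 8 of the 25 were higher and 7 lower, where 30.1% and 33.6% of all loci were, and from MI to iCarP+/Light+ 7 were higher and 4 lower, where 11.5% and 2.01% of all loci were. Olr1, the receptor for oxidised low density lipoprotein, was at 1.06 ± 0.421 CPM (SD, n = 4) in Sham, 72.1 ± 24.1 CPM in MI and 414 ± 173 CPM in iCarP+/Light+ rats, and its second rise was 2.52 on the log2 scale (adjusted p = 1.46e-04, edgeR). Cd69, an activation marker of leukocytes, was at 1.99 and 2.16 CPM in Sham and MI and at 59.9 ± 19.9 CPM in iCarP+/Light+ rats (log2 fold change against MI 4.80, adjusted p = 4.56e-06). Mrc1, the mannose receptor of macrophages, rose by 2.14 with MI and was lower by 1.02 in iCarP+/Light+ rats (adjusted p = 0.0255). Asgr2 (-1.92, adjusted p = 2.26e-04), Colec12 (-1.21, adjusted p = 0.00339) and Klrk1 (-1.36, adjusted p = 0.0248) were also lower than in MI. Cd302, Fcer2, Thbd and Selp were among the higher genes, with log2 fold changes of 0.77 to 1.52. These genes were named after their values were seen.

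Lymphocyte markers (14 of 16 tested) summed to 60.1 to 89.7 CPM in Sham, 140 to 263 CPM in MI and 74.4 to 107 CPM in iCarP+/Light+ rats. Cd8a gave most of the change in this sum, with means of 2.87, 127 and 35.8 CPM, while Cd4 fell with MI from 39.6 to 24.3 CPM (log2 fold change -0.71, adjusted p = 0.00131). Of the 14, 5 were higher and 1 lower in MI than in Sham, where 30.1% and 33.6% of all loci were, and 1 was higher and 2 lower in iCarP+/Light+ than in MI, where 11.5% and 2.01% were.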
